A study of Mus musculus with 12 samples.

Results

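Non-cycling DN3 thymocytes were singled out from the joint sort of thymic double-negative (DN) precursors, which lack CD4 and CD8. Cells were selected on measured values: a cell counted as a member when its droplet held at least 500 UMIs, the molecule tags that mark each captured transcript, and among them at least 2 of Ptcra, at least 1 of Il2ra and 0 of Mki67. The rule found 4586 cells among 29594 DN cells with at least 500 UMIs, in a series of 97404 cell barcodes over 12 libraries. The other 8 libraries hold splenic and thymic γδ T cells and were not used.

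Cells came from adult WT mice and adult constitutive GFI1 KO mice on a C57BL6/J background, with no further allele and no treatment named. DN1, DN2 and DN3 cells were sorted together with a flow sorter, and WT and KO cells of one number were hashtagged, pooled and run together with 10x Genomics 3′ v3 chemistry. This gave 4 DN libraries after splitting by hashtag, called WT 1, WT 2, KO 1 and KO 2, with n = 2 per genotype. How many animals went into a library, and whether the pools came from separate animals, is not given in the sources used here, so p-values measure only the spread between these libraries, which may be technical.

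DN3 thymocytes are the stage at which precursors rearrange the TCR β locus with the RAG recombinase and test the product with the invariant pre-TCR α chain, which Ptcra encodes. They carry CD25, the IL-2 receptor α chain encoded by Il2ra, and depend on Notch signals. Cells that pass the test, called β-selection, enter cycle and lose the early programme, while precursors of γδ T cells rearrange the TCR γ and δ loci at about the same stage. GFI1 is a zinc finger repressor that binds DNA around an AATC core.

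Members made up 14.0% of DN cells in WT 1 (1017 cells), 16.7% in WT 2 (1275), 9.93% in KO 1 (698) and 20.8% in KO 2 (1596). The mean share was 15.4% ± 1.96 (SD, n = 2) in WT and 15.4% ± 7.70 (SD, n = 2) in KO libraries, and KO 1 and KO 2 lay on either side of both WT libraries. A further 1647 cells met the same Ptcra and Il2ra limits with at least 1 Mki67 UMI. Members held a median of 5859 to 6768 UMIs and 2545 to 2890 genes per library, whereas the Mki67-positive cells held a median of 13707 to 16724 UMIs. The UMI sum over members ranged from 5.19e+06 in KO 1 to 1.12e+07 in KO 2, so KO 1 carries the largest counting error.

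The values that chose the members are given as a description. The median member held 3 Ptcra UMIs in every library and 6, 5, 5 and 4 Il2ra UMIs in WT 1, WT 2, KO 1 and KO 2. Cells just inside the limit, with exactly 2 Ptcra UMIs and 1 Il2ra UMI, numbered 54, 99, 40 and 90. Just outside it were 930, 954, 544 and 710 cells with 1 Ptcra UMI that met the other limits, and 54, 156, 79 and 147 cells without an Il2ra UMI. Rag1 stood at 499, 429, 668 and 696 CPM (UMIs of a gene per 1000000 UMIs of the summed cells of a library) in the cells just inside, against 344, 384, 476 and 471 CPM in those with 1 Ptcra UMI. In the cells without an Il2ra UMI it stood at 425, 496, 698 and 751 CPM. Rag1 was thus lower in the cells with 1 Ptcra UMI in every library, and higher than just inside the limit in 3 of 4 libraries in those without an Il2ra UMI.

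Marker genes that the rule did not name followed the label in part. Rag1, which cuts DNA in V(D)J recombination, was 3.95, 3.47, 4.99 and 3.97 times as high in members as in the other DN cells of WT 1, WT 2, KO 1 and KO 2. The Notch target Dtx1 was 3.64, 3.97, 3.47 and 2.68 times as high, and the receptor Notch3 2.63, 2.64, 3.48 and 2.67 times. Cd44, high in the earliest DN cells, stood at 0.340, 0.310, 0.164 and 0.122 times its level in the other cells. In CPM it stood at 5.31, 3.51, 24.5 and 7.34 in members and at 15.6, 11.3, 149.5 and 60.1 in the other cells. The lower KO ratios thus do not mean less Cd44 in KO members. Cd28, which rises at β-selection, stood at 0.486, 0.488, 0.309 and 0.381 times its level in the other cells. Spi1, an early-stage marker, and Cd5, a marker of β-selected cells, were also lower in members of every library. These levels rest on few UMIs in members, 14, 4, 3 and 10 for Spi1 and 18, 25, 26 and 33 for Cd5. Other listed markers did not follow the label. Cd27, a marker of cells past selection, was 1.44, 1.38, 1.47 and 1.505 times as high in members. The early-stage genes Kit (0.897, 0.869, 0.929 and 1.03 times) and Flt3 (1.04, 0.798, 1.93 and 1.15 times) were not depleted in all libraries. Genes of S and G2/M phase summed to 1581 to 1971 CPM in members and to 7837 to 8710 CPM in the Mki67-positive cells. Members were non-cycling only in the sense of the rule, since 39.7%, 37.9%, 41.0% and 38.8% of them in WT 1, WT 2, KO 1 and KO 2 had no UMI of Mki67 and 7 other cycling genes and the rest held at least 1. These are descriptions without a test, since the same cells were divided by the rule.

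**Figure D1:**
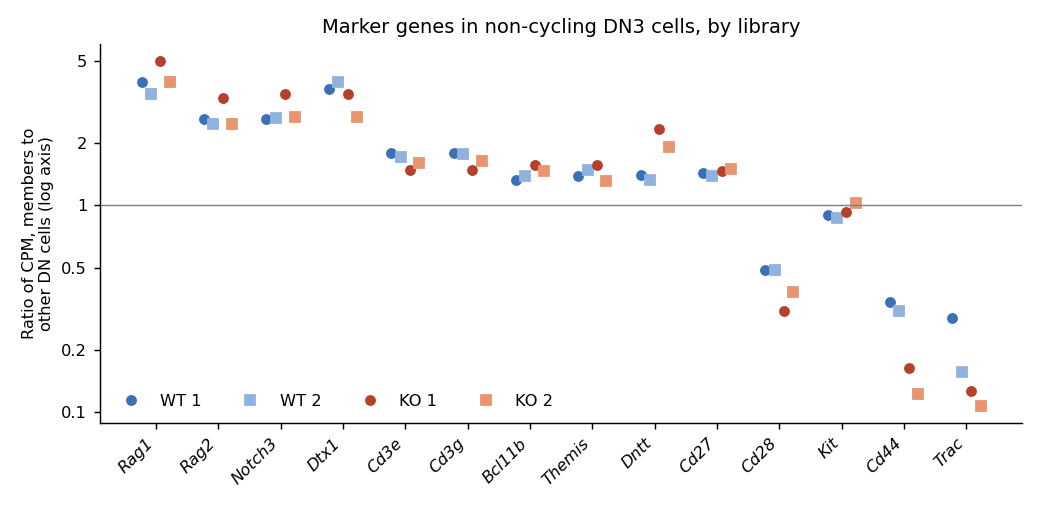
Ratio of CPM in non-cycling DN3 cells to CPM in the other DN cells (log axis, grey line at 1) for 14 marker genes; each point is 1 library. Rag1 lies at 3.47 to 4.99 and Cd44 at 0.122 to 0.340, and Dntt lies at 1.33 and 1.41 in WT libraries and at 1.92 and 2.35 in KO libraries.

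Genes listed for other cell types differed in level between libraries. In the members of WT 1, WT 2, KO 1 and KO 2, genes listed for B cells summed to 134, 163, 169 and 349.5 CPM, those for NK cells to 244, 268, 703 and 656 CPM, those for myeloid cells to 112, 114, 98.5 and 96.5 CPM and those for double-positive and mature αβ T cells to 10.5, 7.86, 33.9 and 16.6 CPM. A few genes made up most of these sums. In WT 1 they were Gzma (142 CPM) and Nkg7 (88.5) for NK cells and Cst3 (93.9) for myeloid cells. For B cells they were Ighm (57.7), Mzb1 (38.3) and Cd79b (34.4) in WT 1. Gzma had a UMI in 48.7% to 79.7% of members, so the NK sum is no count of NK cells. Jchain of the B cell list stood at 3.35, 17.1, 39.3 and 204.7 CPM, with 89.7% and 75.2% of its UMIs in 1 cell in KO 1 and KO 2. Cd79a of B cells was at 0 UMIs in the members of both WT libraries and at 1.16 and 2.15 CPM in KO 1 and KO 2, and erythroid genes summed to 3.27 to 5.01 CPM. KO 1 stood apart in genes of mature innate-like T cells. Il23r, a receptor of IL-17-producing cells, was at 1.54 and 0.484 CPM in WT 1 and WT 2 and at 27.6 and 3.94 CPM in KO 1 and KO 2, with UMIs in 4, 4, 32 and 16 members. Cxcr6 was at 7.97, 3.87, 49.2 and 13.0 CPM and Zbtb16 at 2.80, 3.15, 35.7 and 11.6 CPM. Neither was called by edgeR, nor was Il23r (adjusted p = 0.414, 0.408 and 0.146 for Il23r, Cxcr6 and Zbtb16). With the replicate block all 3 were called (5.8e-14, 5.0e-13 and 9.9e-05). DESeq2 called Il23r and Zbtb16 higher. Between 75.4% (KO 1) and 88.2% (WT 2) of members had no UMI of 10 such genes. No doublet caller was run here, so doublets and free RNA may remain among the members. Their part in the results below was not tested. The counts over all genes in members, and those of each list where they changed, are therefore also given in 2 further settings. These are without KO 1 and without the members that held UMIs of these 10 genes. The first of these settings leaves 1 KO library, so its p-values and counts take their spread from the WT libraries alone. A higher count without KO 1 is thus no added support. The second of these settings was chosen after seeing the data.

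Gfi1 itself was the first gene examined. It stood at 62.3 CPM in WT 1, 56.0 in WT 2, 126.1 in KO 1 and 88.7 in KO 2. Both libraries labelled KO lay above both labelled WT, with a log2 difference of 0.87 (SE 0.13, edgeR quasi-likelihood adjusted p = 0.000734). Gfi1 transcript was thus not lost in the libraries labelled KO. The chemistry reads the 3′ end, and which part of the gene was deleted is not given in the sources used here, so the reads may lie outside the deleted part and do not check the labels. Genotypes are therefore those of the labels throughout. Of 10 tested genes of GFI1 and its corepressor partners, Gfi1 was the single one called, against 11.8% of all genes called, and the list's median log2 difference was −0.05.

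The promoter windows of Gfi1 and of Cdkn1a are shown because both genes differed between the genotypes in members and both windows can be searched for the AATC core. Each runs from 250 bases before to 50 after a RefSeq transcript start on build GRCm38.p6, whereas the files were made on GRCm39. Capitals mark AATC or, for a core on the opposite strand, GATT. The Gfi1 windows lie at chr5:107725756-107726055 and chr5:107724294-107724593 on the minus strand, and the Cdkn1a windows at chr17:29090729-29091028 and chr17:29093519-29093818 on the plus strand.
Gfi1 window 1: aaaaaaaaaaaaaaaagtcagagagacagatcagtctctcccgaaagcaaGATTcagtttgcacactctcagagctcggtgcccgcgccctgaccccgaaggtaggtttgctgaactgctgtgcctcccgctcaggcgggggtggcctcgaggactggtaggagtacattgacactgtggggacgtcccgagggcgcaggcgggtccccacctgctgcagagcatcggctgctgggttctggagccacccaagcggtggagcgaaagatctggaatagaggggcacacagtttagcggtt
Gfi1 window 2: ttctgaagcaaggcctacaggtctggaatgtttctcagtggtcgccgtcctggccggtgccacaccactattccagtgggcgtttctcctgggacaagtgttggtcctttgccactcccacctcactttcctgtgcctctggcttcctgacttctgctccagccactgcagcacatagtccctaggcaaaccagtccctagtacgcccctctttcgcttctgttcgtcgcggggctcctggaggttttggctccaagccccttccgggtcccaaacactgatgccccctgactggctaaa
Cdkn1a window 1: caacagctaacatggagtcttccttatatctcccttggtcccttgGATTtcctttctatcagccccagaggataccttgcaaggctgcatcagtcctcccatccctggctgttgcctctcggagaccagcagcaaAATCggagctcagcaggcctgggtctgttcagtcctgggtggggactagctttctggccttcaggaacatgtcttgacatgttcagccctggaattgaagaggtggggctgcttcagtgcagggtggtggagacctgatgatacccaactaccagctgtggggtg
Cdkn1a window 2: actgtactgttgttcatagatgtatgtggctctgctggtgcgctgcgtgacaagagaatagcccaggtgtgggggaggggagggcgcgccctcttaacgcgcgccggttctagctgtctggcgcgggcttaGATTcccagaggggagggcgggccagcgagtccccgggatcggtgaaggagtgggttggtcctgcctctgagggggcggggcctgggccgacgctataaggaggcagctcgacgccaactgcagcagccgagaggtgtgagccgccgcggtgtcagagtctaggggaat
The core was found 1 and 0 times in the Gfi1 windows and 2 and 1 times in the Cdkn1a windows. Both strands were searched, and 73.1% of all 32851 windows of this length, from 27025 genes, hold it. The longer AAATCA was absent from these 4 windows and is held by 14.0% of all windows. A match of this length is a description of the letters and not a site.

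The comparison of KO with WT asked which genes differ within cells of one stage. Of 11447 genes tested in members, 904 were higher in KO libraries (7.90%) and 444 lower (3.88%), or 11.8% in all. With the pool number as a replicate block, 1438 were higher and 1055 lower (21.8% in all), and 1339 of the 1348 genes called without it were called again in the same direction. Without KO 1, 975 were higher and 562 lower; among members without UMIs of the 10 mature T cell genes, 825 of 11138 were higher and 440 lower, of which 1143 were shared. Among members without UMIs of the cycling genes, 715 of 10083 were higher and 343 lower, of which 912 were shared. The median log2 difference over all genes tested was −0.01. The KO and WT values did not overlap for 46.8% of genes.

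Several genes nearly silent in WT members were abundant in KO members. Rasgrp3, an exchange factor that activates Ras, stood at 1.12, 0.605, 69.0 and 55.1 CPM in WT 1, WT 2, KO 1 and KO 2 (log2 difference 6.18, SE 0.22, adjusted p = 6.9e-09). Chd7, a chromatin remodeller, stood at 2.38, 0.847, 68.2 and 47.0 CPM (5.19, SE 0.28, adjusted p = 6.4e-07). Cd7, a surface receptor of early lymphoid cells, stood at 3.91, 3.27, 108 and 109.7 CPM (4.96, SE 0.15, adjusted p = 3.7e-09). For all 3 genes both KO libraries lay far above both WT libraries. Scart1, a scavenger receptor of γδ T cells, stood at 21.0, 21.2, 305.5 and 273 CPM (3.80, SE 0.12, adjusted p = 3.7e-09). Klf2, a factor that drives exit from the thymus, stood at 5.87, 6.53, 84.2 and 80.0 CPM (3.75, SE 0.14, adjusted p = 7.8e-09). Neither gene overlapped between the genotypes, and replicates differed far less than the genotypes. The other 7 of the 12 named genes with the greatest rise were the cathepsin Ctss (4.81), Nucb2 (4.70), the RNA transporter gene Sidt1 (4.41), the RNA-binding Rbm47 (4.20), the adhesion molecule Jaml (4.19), Nav1 (4.0) and Fndc1 (3.89). All 12 were called in each of the 16 alternatives.

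Fewer genes fell as far. The imprinted non-coding RNA H19 stood at 49.5, 46.6, 0.771 and 2.69 CPM in WT 1, WT 2, KO 1 and KO 2 (log2 difference −4.49, SE 0.26, adjusted p = 5.3e-07). Cacnb2, a calcium channel subunit, stood at 51.0, 41.9, 2.70 and 2.78 CPM (−4.02, SE 0.18, adjusted p = 3.0e-08). Cdkn1a, the cell cycle inhibitor p21, stood at 107, 101, 32.2 and 25.7 CPM (−1.83, SE 0.12, adjusted p = 4.9e-07). In each the KO libraries lay below both WT libraries. Ly6d, a GPI-linked surface protein of early lymphoid cells, was abundant in WT members and stood at 2523, 2680, 695 and 1032 CPM (−1.55, SE 0.21, adjusted p = 0.000546). Lypd6b (−1.52), the sialyltransferase gene St8sia1 (−1.50) and the phosphodiesterase gene Pde5a (−1.33) also fell, as did Trgc4, described with the TCR γ genes. The calls of 3 further falls depended on the fit. Tshz2 (264, 279, 73.4 and 47.0 CPM, −2.18) had an adjusted p of 3.4e-06 but 0.0940 with the replicate block. Ccr9 (167, 157, 73.3 and 40.3 CPM, −1.53), the receptor for the thymic chemokine CCL25, had 0.00212 but 0.154 with the block. Med12l (95.9, 69.7, 35.1 and 17.6 CPM, −1.70) had 0.0185 but 0.328 without WT 1.

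**Figure D2:**
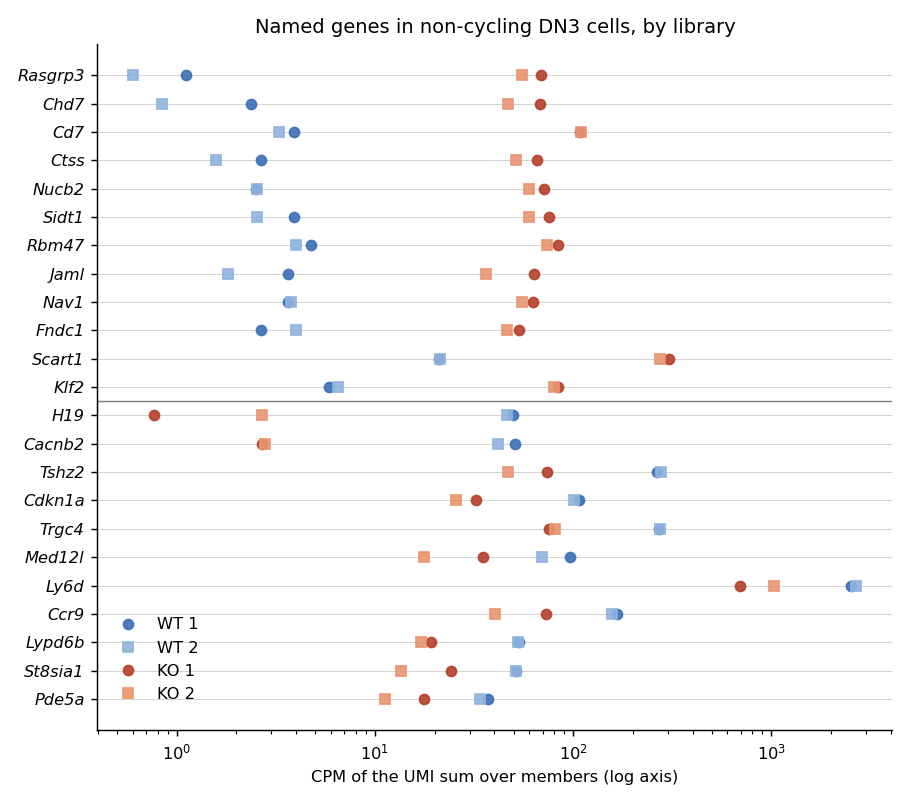
CPM of the UMI sum over non-cycling DN3 cells (log axis) for 23 named genes, 12 higher in KO above the grey line and 11 lower below it; each point is 1 library. For Rasgrp3 the WT points lie at 0.605 and 1.12 CPM and the KO points at 55.1 and 69.0 CPM. The genes were chosen as called over all libraries and changed in the same direction in both pools. That their genotypes lie apart follows from this choice.

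Genes of the DN3 programme changed in both directions. Of 11 V(D)J recombination genes, 2 rose and none fell (median log2 difference 0.00), against 11.8% of all genes called. The count was 1 higher without KO 1 and 4 higher among members without UMIs of mature T cell genes. Rag1 stood at 597, 563, 775 and 793 CPM (0.46, SE 0.12, adjusted p = 0.0226), a call lost without KO 2 (0.132), WT 1 (0.219) or WT 2 (0.149). Its partner Rag2 stood at 97.6, 102, 136 and 119.9 CPM (0.37, SE 0.11, adjusted p = 0.0382), a call lost without KO 1 (0.0808), WT 1 (0.363) or WT 2 (0.0551). Dntt, which adds untemplated bases at the joints, stood at 1060, 1080, 1004 and 898 CPM and was not called (−0.15, adjusted p = 0.570). Of 9 DN3 markers outside the rule, Rag1, Rag2 and Dtx1 rose, Themis fell and 5 were not called (median −0.14), and without KO 1 the counts were 2 higher and 1 lower.

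Among 22 genes of the pre-TCR complex and its proximal signalling, 4 rose and 1 fell (median −0.03), against 11.8% of all genes called. The 22 include Ptcra, whose UMIs chose the cells and which was not called. Fyn, a Src family kinase, stood at 67.0, 63.3, 160 and 140.2 CPM (1.23, SE 0.10, adjusted p = 5.8e-06), whereas its relative Lck stood at 833, 843, 717 and 707 CPM (−0.21, adjusted p = 0.360, or 0.0150 with the replicate block). Themis, an adaptor of TCR signalling, stood at 1738, 1513, 798 and 602 CPM (−1.20, SE 0.14, adjusted p = 8.1e-05). It was lower in both KO libraries than in either WT library. Prkcq (0.75, adjusted p = 0.00126), a kinase that relays the signal to NF-κB, and the kinase gene Zap70 (0.88, adjusted p = 0.00924, or 0.393 among members without other-lineage UMIs) rose. Without KO 1 the list had 4 higher and 3 lower, and among members without UMIs of mature T cell genes 4 higher and 2 lower. Of 10 tested Notch receptors and targets, Dtx1 alone was called (79.8, 81.9, 127 and 125 CPM, 0.67, SE 0.11, adjusted p = 0.00104), and the list's median was −0.16. This list includes Ptcra and Il2ra, whose UMIs chose the cells and which were not called. Notch1 (0.11, adjusted p = 0.677) and Notch3 (−0.14, adjusted p = 0.532) missed the threshold, and so did Hes1 (−0.18, adjusted p = 0.451, or 0.0210 with the replicate block).

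Commitment factors were called about as often as all genes. Of 16, 2 rose and none fell (median 0.01), against 11.8% of all genes called, and 3 were higher in each of the settings without KO 1 and without UMIs of mature T cell genes. Gata3, required from the earliest T cell stages, stood at 99.5, 99.1, 149 and 158 CPM (0.66, SE 0.11, adjusted p = 0.00150), and Spib rose from 8.95 and 11.6 to 20.8 and 20.1 CPM (1.01, adjusted p = 0.00204, or 0.0835 among members without UMIs of cycling genes). Bcl11b, the commitment factor, stood at 1827, 1680, 1493 and 1433 CPM (−0.23, adjusted p = 0.325, or 0.0118 with the replicate block), and Tcf7 at 631, 576, 606 and 574 CPM (−0.00, adjusted p = 0.991). Of 10 tested progenitor genes 1 rose and 2 fell (median 0.44; 3 higher and 2 lower without KO 1), with Spi1, Lmo2, Lyl1, Tal1, Gata2 and Cd34 below the filter on low counts. Erg, which falls during commitment, stood at 80.4, 62.5, 44.1 and 39.0 CPM (−0.75, SE 0.12, adjusted p = 0.00114). Nfe2 also fell (−1.31, adjusted p = 0.00655, or 0.0688 with DESeq2), and Hoxa9 (1.57, adjusted p = 0.0454) lost its call without KO 2 (0.198), WT 1 (0.0583) or WT 2 (0.386).

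Genes of E protein inhibitors rose. E proteins are the factors that drive Rag and Ptcra transcription, and Id proteins bind and block them. Of the 6 Id and E protein genes, 4 rose and none fell (median 0.88), against 7.90% of all genes. Id3 stood at 32.2, 36.9, 77.1 and 87.5 CPM (1.29, SE 0.14, adjusted p = 4.4e-05), Id2 at 35.2, 24.8, 83.1 and 54.6 CPM (1.20, SE 0.18, adjusted p = 0.00191), and the far lower Id1 at 0.839, 1.09, 5.98 and 5.82 CPM (2.61, SE 0.36, adjusted p = 0.000318). The E protein gene Tcf4 stood at 253, 223, 364 and 323 CPM (0.56, SE 0.11, adjusted p = 0.00365). All 4 were also called among members without UMIs of mature T cell genes, where the list had 5 higher and Id2 differed by 0.49; when cells were thinned before the rule, Id2 had an adjusted p of 0.0513. Tcf12 (0.39, adjusted p = 0.0922, or 2.6e-05 with the replicate block) and Tcf3 (−0.20, adjusted p = 0.312, or 0.0292 with the block) missed the threshold. Tcf12 was called higher in 5 of 16 alternatives, among them DESeq2 and the members without UMIs of mature T cell genes (adjusted p = 0.0470), and Tcf3 lower with the block alone.

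Of 12 tested genes of the β-selection response, Cd2, Id3 and Tfrc rose, Cd28 fell and 8 were not called (median 0.10), against 11.8% of all genes called. Among members without UMIs of mature T cell genes 2 were higher and 1 lower, and Cd2 had no value there, so its call was not tested. Cd2 stood at 1.26, 0.968, 7.13 and 6.0 CPM (2.57, SE 0.34, adjusted p = 0.000239) and the transferrin receptor gene Tfrc at 56.3, 50.2, 103 and 96.6 CPM (0.94, SE 0.11, adjusted p = 7.0e-05). Cd28 stood at 32.7, 32.8, 23.7 and 21.1 CPM (−0.53, adjusted p = 0.0151, or 0.0860 without WT 2, 0.151 with DESeq2), and among members without UMIs of cycling genes the difference was −0.27 (adjusted p = 0.580). Cd27, a marker of cells past selection, stood at 156, 146, 158 and 163 CPM (0.12, adjusted p = 0.593). Of the 30 S and G2/M phase genes, 0 were called by edgeR and 0 by DESeq2, with 4 at an unadjusted edgeR p under 0.05 (median −0.14). Their list summed to 1767, 1971, 1581 and 1770 CPM, lower in KO in each pool. The rule left out every cell with an Mki67 UMI in both genotypes, so the missing calls do not bear on cycling among DN3 cells.

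The γδ T cell genes split. Of 17 tested genes of the IL-17-producing γδ T programme, 8 rose and none fell (median 1.93), against 7.90% of all genes higher and 3.88% lower, with 12 higher without KO 1 and 5 higher among members without UMIs of mature T cell genes. Ccr6 and Ltb4r1, called with all members, had no value in that last setting, so their calls were not tested there. The list's 20 genes summed to 677, 651, 1397 and 1158 CPM in members and to 574, 560, 2924 and 1651 CPM in the other DN cells. The rise was thus not particular to members. The list was drawn up with the study's results on these mice known, so its direction is not independent evidence. Maf, a factor required by IL-17-producing γδ T cells, stood at 13.0, 9.56, 92.1 and 66.0 CPM in members (2.82, SE 0.16, adjusted p = 2.7e-07). In the other DN cells Maf stood at 16.9, 16.0, 273 and 135 CPM. Scart2 stood at 29.2, 32.3, 93.5 and 90.2 CPM in members (1.60, SE 0.12, adjusted p = 1.9e-06), beside Scart1 above. The kinase gene Blk stood at 24.3, 29.9, 105 and 61.8 CPM (1.60, adjusted p = 0.00422), a call lost with the replicate block (0.245), and Sox13, an early γδ T factor, at 19.8, 15.4, 26.4 and 35.6 CPM (0.89, adjusted p = 0.00759). Tmem176a (0.59, adjusted p = 0.00332, or 0.0862 among members without UMIs of mature T cell genes), Ccr6 and Ltb4r1 rose too; the latter pair had under 1 CPM in both WT libraries, and their calls were lost without KO 1 (Ccr6, 0.109) or WT 1 (Ltb4r1, 0.0628).

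Several TCR γ genes fell in the same cells. Of 11 tested TCR γ and δ genes, 6 fell and none rose (median −0.79), against 3.88% of all genes, and 7 were lower without KO 1. Trgc4 stood at 269.9, 274, 75.8 and 80.9 CPM (−1.76, SE 0.12, adjusted p = 6.6e-07). Trgc2 stood at 713, 688, 394 and 401 CPM (−0.79, SE 0.12, adjusted p = 0.000540). Trgc1 stood at 467, 468, 240.0 and 292 CPM (−0.78, SE 0.14, adjusted p = 0.00202). Every KO library lay below every WT library for these constant genes. Some of them are near-identical copies, so the split of reads among those is uncertain. The variable genes Trgv2 (306, 291, 185 and 183 CPM, −0.67, adjusted p = 0.000944) and Trgv1 (−1.24, adjusted p = 0.000509) fell as well. Trgv7 (−1.24, adjusted p = 0.0200) lost its call without KO 2 (0.0508) or WT 1 (0.175). Trgv4 stood at 36.9, 39.0, 40.3 and 34.4 CPM (−0.01, adjusted p = 0.982), and Trgv6 at 0.419, 0.363, 1.35 and 1.61 CPM (1.96, adjusted p = 0.0575, or 0.0271 with the replicate block). Trdc, the δ constant gene, stood at 181, 163, 133 and 155 CPM (−0.21, adjusted p = 0.361). Of the 4 tested γδ T cell markers Sox13 and Scart1 rose (median 1.43), against 7.90% of all genes higher. Both genes are also counted in the IL-17-producing γδ T programme. The marker list summed to 222, 200, 467 and 465 CPM. Scart1 alone made up 21.0, 21.2, 305.5 and 273 CPM of these sums, and Trdc did not rise.

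**Figure D3:**
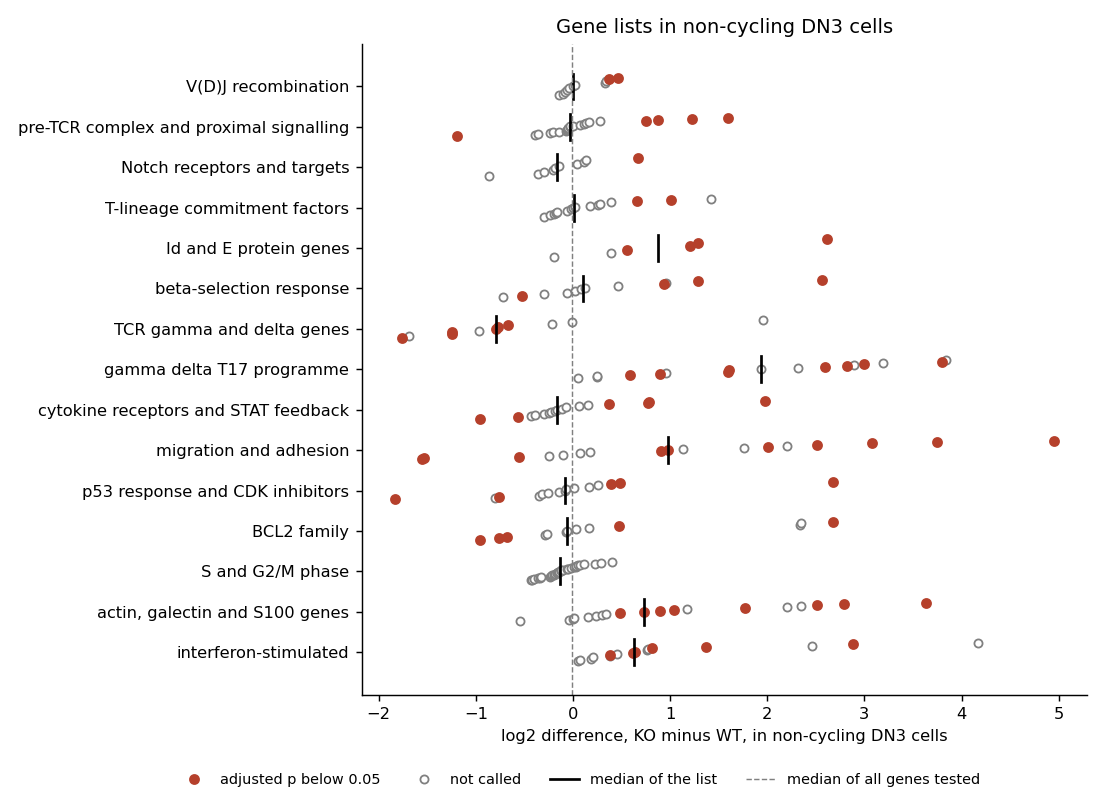
log2 difference, KO minus WT, of each tested gene of 15 gene lists in non-cycling DN3 cells; filled points are called at an adjusted p below 0.05, black bars are list medians and the dashed line is the median of all genes tested (−0.01). The γδ T17 programme lies to the right (median 1.93) and the TCR γ and δ genes to the left (median −0.79), while the V(D)J recombination and pre-TCR lists centre near 0.

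Survival and cytokine genes moved in both directions. Bcl2, which protects DN cells downstream of IL-7, stood at 305, 257, 151 and 133 CPM (−0.96, SE 0.11, adjusted p = 7.2e-05), while Il7r stood at 224, 175, 237 and 176 CPM (0.06, adjusted p = 0.859). Of 13 BCL2 family genes 2 rose and 3 fell (median −0.06), against 11.8% of all genes called, with 4 higher and 3 lower without KO 1. Pmaip1, which encodes the pro-apoptotic NOXA, stood at 0.839, 0.484, 4.05 and 4.21 CPM (2.68, SE 0.43, adjusted p = 0.00114). Bcl2l11 (0.48, adjusted p = 0.0197, or 0.213 without WT 2) also rose, and Bmf (−0.68, adjusted p = 0.00964, or 0.0917 with DESeq2) and Bbc3 (−0.76, adjusted p = 0.0202, or 0.0714 without WT 1, 0.0835 without WT 2) fell. DESeq2 called 2 of 15 tested p53 response and CDK inhibitor genes, without Cdkn1b (adjusted p = 0.0910), Cdkn2c (0.263) and Bbc3 (0.214). By edgeR 3 of the 15 rose and 2 fell (median −0.08), of which Cdkn1a fell the most. The counts were 2 and 2 without KO 1 and 3 and 3 among members without UMIs of mature T cell genes. Cdkn1b (0.39, adjusted p = 0.0357) lost its call without KO 1 (0.139), WT 1 (0.209) or WT 2 (0.109), and stood at 0.20 with cells thinned before the rule (adjusted p = 0.731). Cdkn2c (0.48, adjusted p = 0.0432) lost its call without KO 2 (0.178) or WT 1 (0.332), and stood at 0.21 under a stricter rule (adjusted p = 0.697). Of 17 tested cytokine receptor and STAT feedback genes 4 rose and 2 fell (median −0.17), against 3 and 3 without KO 1 and 2 and 2 among members without UMIs of mature T cell genes. This cytokine receptor list includes Il2ra, whose UMIs chose the cells and which was not called. Il6st, the shared receptor chain gp130, stood at 41.0, 34.1, 65.2 and 61.2 CPM (0.78, adjusted p = 0.000473) and Ifngr1 at 453, 419, 287 and 288 CPM (−0.57, adjusted p = 0.00366). Il2rb (1.97, adjusted p = 0.00199) rose, but among members without UMIs of mature T cell genes its adjusted p was 0.466. Il2rg (0.37, adjusted p = 0.0398) lost its call without KO 1 (0.168), WT 1 (0.175) or WT 2 (0.206), and Il15ra (0.77, adjusted p = 0.0185) without WT 2 (0.0551).

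Migration and adhesion genes changed in both directions. Of 17, 7 rose and 3 fell (median 0.98), against 7.90% of all genes higher and 3.88% lower. The counts were 8 and 3 without KO 1 and 7 and 2 among members without UMIs of mature T cell genes. Itgae, the integrin αE chain, stood at 15.6, 12.7, 71.3 and 43.8 CPM (2.01, SE 0.20, adjusted p = 8.6e-05), and its partner Itgb7 at 4.33, 1.94, 22.9 and 13.0 CPM (2.51, SE 0.34, adjusted p = 0.000746). Klf2 and Cd7 are described above, and Ccr7 was called at 0.280, 0.242, 2.70 and 1.97 CPM, which is only 2 UMIs in each WT library. Ly6a (0.98, adjusted p = 0.0466) lost its call without WT 1 (0.492). Itga4 (−0.56, adjusted p = 0.0252) fell, a call lost without KO 2 (0.134) or WT 1 (0.175), beside Ccr9 and Ly6d.

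Of 19 actin, galectin and S100 genes 8 rose and 0 fell (median 0.73), with 10 higher without KO 1 and 8 higher and 1 lower among members without UMIs of mature T cell genes. Of 16 interferon-stimulated genes 6 rose and 0 fell (median 0.63), with 5 higher in that last setting. Over all genes 7.90% were higher. Tmsb10, which binds monomeric actin, stood at 275, 336, 1549.7 and 1872 CPM (2.52, SE 0.17, adjusted p = 1.5e-06), Evl, a regulator of actin filaments, at 21.5, 19.1, 142 and 134 CPM (2.79, SE 0.12, adjusted p = 1.6e-08), and Lgals3, galectin-3, at 4.05, 3.63, 48.0 and 45.8 CPM (3.64, SE 0.16, adjusted p = 2.5e-08). Capg (1.77), Lgals1 (1.04), Vim (0.90), S100a10 (0.73) and Anxa2 (0.48; adjusted p = 0.258 without WT 1) made up the rest; with cells thinned before the rule, the differences were 0.08 for Vim (adjusted p = 0.957) and 0.46 for S100a10 (0.0702), and among members without other-lineage UMIs 0.47 for Vim (0.0619). Ifitm3, an antiviral membrane protein, stood at 14.4, 11.1, 88.9 and 93.5 CPM (2.88, SE 0.14, adjusted p = 5.3e-08). Ifi27l2a (1.37; adjusted p = 0.764 with cells thinned before the rule), Ifitm2 (0.64; 0.38 without KO 2, adjusted p = 0.0576) and Isg15 (0.62) rose, and so did Irf7 (0.82; adjusted p = 0.0732 without KO 1 and 0.260 without WT 2). With cells thinned before the rule Ifitm2 differed by 0.40 (adjusted p = 0.170) and Irf7 by 0.44 (0.800), and among members without other-lineage UMIs Irf7 differed by 0.50 (0.469). Of 11 tested immediate early and heat shock genes, Jund alone was called (−0.58, adjusted p = 0.00333; list median 0.07).

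Lists of other cells and of the sex chromosomes give the context. Over all genes 11.8% were called, 7.90% higher and 3.88% lower. Gzma, a granule protease of NK cells, stood at 142, 174, 555 and 536 CPM (1.81, SE 0.14, adjusted p = 2.1e-06) and had a UMI in 48.7%, 49.5%, 79.7% and 76.7% of members. Gzma, Il2rb, Ccl5 and Klrd1 of 8 tested NK cell genes were called higher (median 1.84), with 5 higher without KO 1 and 1 among members without UMIs of mature T cell genes, where Klrd1 turned to −0.20 (adjusted p = 0.873). Ccl5 had no value among members without UMIs of mature T cell genes, so its call was not tested there. That setting left out cells by UMIs of related genes, so its lower count may follow from the choice of cells, which was not tested. Lyz2 of myeloid cells stood at 11.6, 13.1, 2.89 and 2.24 CPM (−2.27, SE 0.25, adjusted p = 4.8e-05) and was the single call among 4 tested myeloid genes (median 0.08). Of 4 tested B cell genes (median 0.10) and 1 erythroid gene (0.20), 0 were called by edgeR, 0 by DESeq2 and 0 had an unadjusted edgeR p under 0.05, but without KO 1 there was 1 B cell gene called higher, and likewise 1 myeloid gene. Of genes of double-positive and mature αβ T cells 1 of 3 was called, Cd40lg (median 1.60; its call was lost without KO 1, adjusted p = 0.194, or WT 2, 0.0770), and among members without UMIs of mature T cell genes 0 were. Cd40lg had no value in that last setting, so its call was not tested there. Xist stood at 1925, 1428, 1937 and 1572 CPM and the Y-linked Ddx3y at 31.2, 34.2, 22.2 and 13.6 CPM (−0.91, adjusted p = 0.00494), so every library held RNA of both kinds. Uty fell too (−0.84, adjusted p = 0.0174, or 0.0805 under a stricter rule), 2 of 6 genes in all (median −0.54). The sex of the animals is not in the labels, and the part of these differences in the results was not tested.

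The share of members with a UMI was compared at equal depth, with each cell thinned to 3000 UMIs and 14 to 54 shallower members per library left out. Scart1 was then found in 5.14%, 4.86%, 40.2% and 38.5% of members of WT 1, WT 2, KO 1 and KO 2 (10.1%, 10.2%, 53.3% and 52.4% unthinned). Maf was found in 4.03%, 2.51%, 19.1% and 15.2% (7.28%, 4.55%, 33.0% and 28.1% unthinned), and Cdkn1a in 27.9%, 25.1%, 9.36% and 7.26% (44.4%, 39.3%, 16.6% and 12.8%). The change was thus spread over many cells for each gene and not carried by a few. Rag1 was found in 73.3%, 72.8%, 81.6% and 81.6% (87.4%, 86.7%, 93.0% and 91.8% unthinned) and Gfi1 in 17.6%, 16.7%, 33.5% and 24.3% (34.0%, 29.3%, 56.6% and 42.9%). As a measure of free RNA, cells with at least 2 Cd79a UMIs and none of Ptcra were taken as B cells, 7, 4, 15 and 47 in number with a median of 3622, 5363, 12130 and 11130 UMIs. Among them Scart1 was found in 0%, 0%, 14.3% and 0% and Maf in 0%, 0%, 7.14% and 2.13% at the same depth. Dntt was found in 40%, 25%, 21.4% and 10.6% of these cells, and Rag1 in 20%, 0%, 21.4% and 4.26%. Cdkn1a was found in 0%, 25%, 0% and 2.13%. The source of this RNA was not tested. Only 5, 4, 14 and 47 of these cells reached this depth, so few cells stand behind each share.

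**Figure D4:**
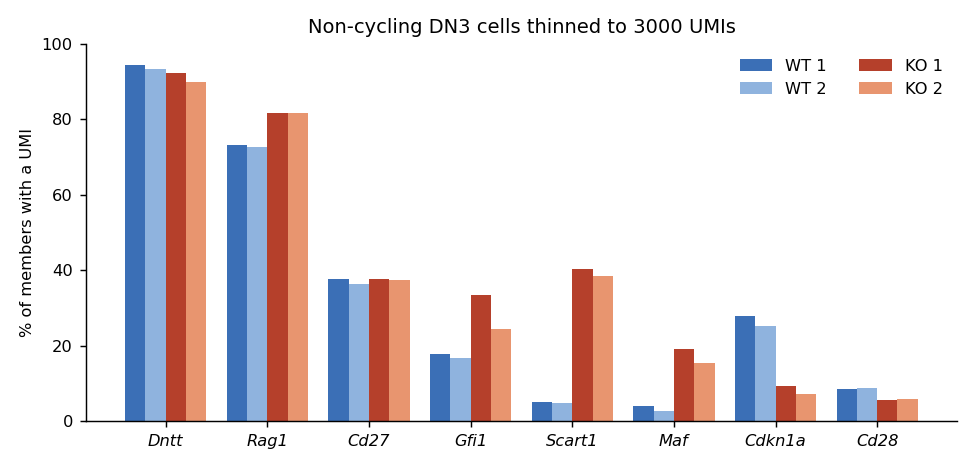
Share of non-cycling DN3 cells with at least 1 UMI of each of 8 genes after thinning each cell to 3000 UMIs; bars are libraries and the axis starts at 0. Scart1 and Maf are higher and Cdkn1a lower in both KO libraries, while Dntt (89.8% to 94.4%) and Cd27 (36.4% to 37.8%) lie close together in all 4.

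The KO effect was next compared with that in Mki67-positive DN3 cells of the same libraries, where 1308 of 11040 genes (11.8%) were called. The difference between the 2 effects was called for 354 of 11724 genes (3.02%), 88 more positive and 266 more negative in members. DESeq2 called 63 genes, 23 and 40, and with DESeq2 size factors in edgeR the split was 151 and 190. Without KO 1 the balance of directions turned, with 229 more positive and 192 more negative. Without WT 1 the count was 167, without WT 2 it was 133 and without KO 2 it was 568. Bcl2 fell in members (−0.96), while in cycling cells it stood at 219, 144, 171 and 146 CPM (−0.19; difference −0.84, SE 0.10, adjusted p = 1.1e-05). Trgc2 likewise fell in members (−0.79), against 358, 366, 329 and 344 CPM in cycling cells (−0.09; difference −0.76, SE 0.08, adjusted p = 4.2e-08). For both genes WT members stood above KO members and above the cycling cells of every library. Camk4 (difference 1.29) was more positive in members. Maf rose in both, by 2.82 in members and 3.84 in cycling cells, and that difference lost its call without WT 2 (adjusted p = 0.209).

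Against the other DN cells, a mixture in which 2108 of 13836 genes (15.2%) were called, the effect differed for 1252 of 13506 genes (9.27%), 609 more positive and 643 more negative in members. The balance of directions depended on single libraries, with 158 and 339 without WT 1, 127 and 391 without WT 2, 950 and 654 without KO 1 and 1981 and 1455 without KO 2, or 183 and 352 with DESeq2. The totals were 497, 518 and 3436 without WT 1, WT 2 and KO 2. Ltb, lymphotoxin β, stood at 50.6, 69.0, 75.4 and 50.2 CPM in members and at 39.4, 50.6, 281 and 138 CPM in the other cells (log2 difference 0.06 against 2.21). Il7r behaved likewise, with 0.06 in members against 1.56 in the other cells, where it stood at 241, 195, 845 and 429 CPM (difference −1.39, SE 0.16, adjusted p = 0.00106). In members both genes stayed within the WT range or near it. Dntt was called lower in the other cells (751, 813, 428 and 467 CPM, −0.79, adjusted p = 0.0345) and not in members (difference 0.67, SE 0.10, adjusted p = 0.000467). Nucb2 rose by 4.70 in members and by 3.49 in the other cells (difference 1.25, adjusted p = 0.00287). The other DN cells of the KO libraries differ in makeup, since 35.6% and 59.9% of them in KO 1 and KO 2, against 72.4% and 79.9% in WT 1 and WT 2, had no UMI of the mature T cell genes, and its part in these differences was not tested.

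**Figure D5:**
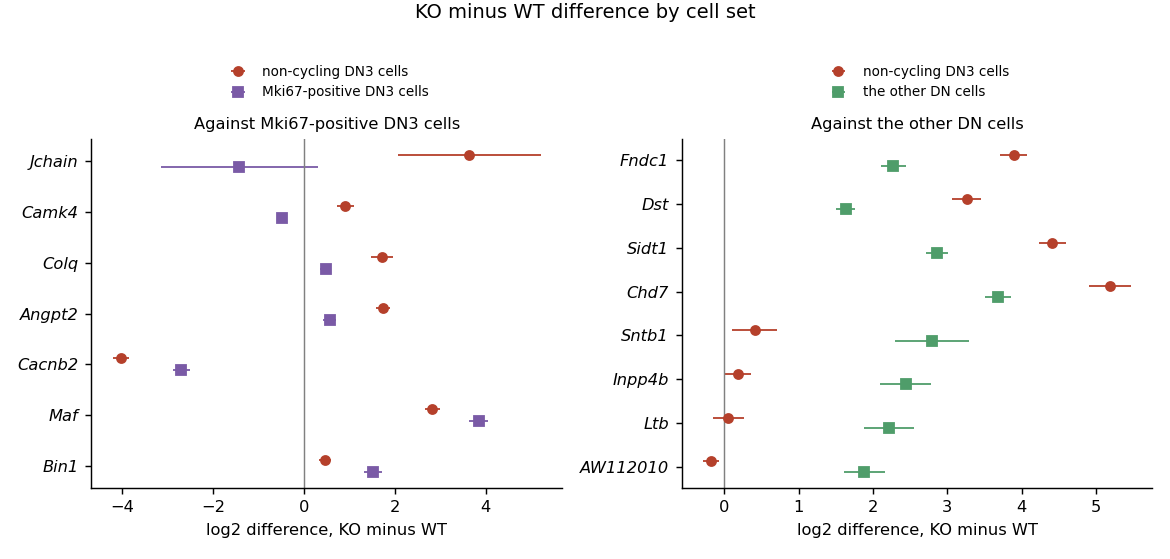
log2 difference, KO minus WT, with its standard error in non-cycling DN3 cells (circles) and in the cells they are compared with (squares), for 7 named genes (Mki67-positive DN3 cells) and 8 named genes (other DN cells). Ltb lies at 0.06 in non-cycling DN3 cells and at 2.21 in the other DN cells, and Maf at 2.82 and 3.84 in non-cycling and Mki67-positive DN3 cells.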

How the data were processed

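Single-cell gene expression of thymic DN cells was measured in 2 pools, each holding hashtagged WT and KO cells. The deposited values are unnormalized UMI counts for 33696 genes and 2 hashtags in each cell; per the labels the authors made them with Cell Ranger 8.0.1 on GRCm39 and split each pool by hashtag. Cells passed the rule on UMIs of Ptcra, Il2ra and Mki67 at a minimum of 500 UMIs; the study's own limits of 200 genes and 20% mitochondrial UMIs were an alternative. UMI counts were summed per library and cell set, because cells are not replicates. As in the study, 9536 ribosomal, Gm-numbered and mitochondrial genes were left out by name; the study's rank test over cells was not used.

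Sums were tested with the edgeR 4.0.16 quasi-likelihood F test (R 4.3.3, limma 3.58.1; robust, TMM factors, default filter on low counts, two-sided), and adjusted p-values are Benjamini-Hochberg over all genes tested, with calls below 0.05. The 2 differences of effects were interactions with the library as a block. DESeq2 1.42.0 was an alternative. Python 3.11.15 with numpy 2.4.6, pandas 2.3.3, scipy 1.17.1 and matplotlib 3.10.9 did the rest, and the fits were tested on simulated data. Own hashtags led in 100% of cells, which shows only the split, and DN libraries shared at most 17 barcodes.

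Libraries of one number share a droplet run per the labels, so the number pairs them: deviations from the genotype means correlated at r = 0.225 (11447 genes), a single value because with 2 libraries per genotype the second pair mirrors the first. Members, gene lists and the rule for named genes were chosen with earlier results of these data known. That rule took, at a mean of at least 20 CPM, the 12 called genes with the greatest rise and the 12 with the greatest fall in both pools, without variable segments, the genes of the lists, and 4 in each direction per interaction. Alternatives were DESeq2 and its size factors, no filter on low counts, the replicate block, leaving out each library, other rules for cells and genes, and, added after seeing the data, members without UMIs of mature T cell genes. Some genes of these lists and of this rule are counted but not reported by name here.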

Additional observations from a re-analysis of the deposited data

Results flagged for a closer look

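The KO effect in non-cycling DN3 cells differed from that in Mki67-positive DN3 cells for 354 genes and from that in the other DN cells for 1252 genes, each by the interaction test in edgeR; DESeq2 called 63 and 535. All values below are log2 effects in members minus those in the other set. Against Mki67-positive DN3 cells they were 1.29 for Camk4, 1.18 for Colq and 1.11 for Angpt2 on the positive side. On the negative side they were −0.84 for Bcl2 and −0.76 for Trgc2. The calls of 3 genes rest on single libraries: Cacnb2 (−1.39) had an adjusted p of 0.344 without KO 2, Maf (−1.12) one of 0.209 without WT 2 and Bin1 (−1.10) one of 0.0937 without WT 2. Jchain (5.22), the joining chain of secreted antibodies, stood at 3.35, 17.1, 39.3 and 204.7 CPM in the members of WT 1, WT 2, KO 1 and KO 2; a single cell held 75.2% of its UMIs in KO 2 and another 89.7% in KO 1.

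Against the other DN cells the values were 1.66 for Fndc1, 1.65 for Dst, 1.58 for Sidt1, 1.25 for Nucb2 and 0.67 for Dntt, all more positive in members. Chd7 (1.57) had an adjusted p of 0.161 without WT 2. More negative in members were Sntb1 (−2.16), Inpp4b (−2.11), Ltb (−2.03), the interferon-inducible AW112010 (−1.96) and Il7r (−1.39).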

How the results depend on the processing

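Genes called in members numbered 1348. DESeq2 on all libraries called 914, of which 881 were among these in the same direction. Of 294 named and listed genes it ended 15 calls and added 10. The calls it ended include Rag2 (DESeq2 adjusted p = 0.0840), Hoxa9 (0.320), Trgv7 (0.193), Il2rg (0.0878) and Il15ra (0.122). Also among them were Cdkn1b (0.0910), Cdkn2c (0.263), Bbc3 (0.214), Bcl2l11 (0.0656), Irf7 (0.263) and Cd40lg (0.0865). The replicate block gave 2493, thinning each cell to 3000 UMIs before the rule gave 696, and leaving out 1 library gave 975 to 1537. No gene was called in opposite directions in any of the 16 alternatives, and 582 were called in every alternative that gave them a value. Among the 24 named genes 381 of 384 alternative fits kept the call; besides Tshz2, Ccr9 and Blk the replicate block ended no call of a named or listed gene, while it added 61. The heat shock gene Hspa1b, not called with all libraries, ranged from −1.09 (called, without KO replicate 2) to 0.53 when 1 library was left out, against 0.04 with all, and Klrd1 stood at −0.20 among members without UMIs of mature T cell genes, an alternative added after seeing the data.

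The difference from Mki67-positive DN3 cells was called for 354 genes, for 63 with DESeq2 and for 133 to 568 without 1 library. The difference from the other DN cells was called for 1252 genes, for 535 with DESeq2 and for 497 to 3436 without 1 library. The mean share of members was 15.4% in WT and 15.4% in KO. A stricter rule (at least 4 Ptcra and 2 Il2ra UMIs) gave 3.73% and 5.25%, and thinning gave 7.82% and 8.03%. Without 1 library it was 14.0% to 16.7% in WT and 9.93% to 20.8% in KO. The cause of these shifts was not tested, and thinning also left fewer genes (9246) to test. With 2 libraries per genotype, genes near 1 CPM rest on a few UMIs. A fit without 1 library leaves 1 in that genotype, so its spread comes from the other genotype alone.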

Other observations

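Ifitm1, an interferon-induced membrane protein of the interferon-stimulated list that was singled out after its values were seen, stood at 6.01, 5.32, 54.0 and 136.6 CPM in the members of WT 1, WT 2, KO 1 and KO 2. Its log2 difference was 4.17 (SE 0.88), not called by edgeR (adjusted p = 0.155) but called higher by DESeq2. It had a UMI in 2.85%, 3.29%, 12.6% and 23.4% of members, and no single cell held more than 16.3% of its UMIs in any library.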
